A study of Homo sapiens with 12 samples.

Results

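The expression of 9 genes of NADPH supply was examined in HLE-B3 cells, a human lens epithelial cell line, among the 58735 genes counted by the authors. The genes were taken by name, as PGLS, PGD, RPIA, RPE, TKT, TALDO1, ME1, IDH1 and IDH2, and each name matched 1 row of the count and FPKM tables. The study sequenced 12 libraries of total RNA, 3 biological replicates in each of 4 groups. The groups were wild-type (WT) cells collected untreated at 0 h, WT cells exposed to 200 μM H2O2 for 12 h, ATG7 knockout (KO) cells collected untreated at 0 h, and ATG7 KO cells exposed to the same H2O2 for 12 h. ATG7 is needed for autophagosome formation, and the KO line was made with CRISPR/Cas9 and picked as individual clones, whose number in these libraries the labels do not give. The effect of H2O2 cannot be told apart from that of 12 h in culture, since untreated cells were taken at 0 h, and a clone's own features cannot be told apart from the loss of ATG7.

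NADPH carries the electrons with which cells regenerate reduced glutathione and thioredoxin, and so it feeds the removal of peroxides, which matters in the lens because its cells live under constant oxidative load. The oxidative branch of the pentose phosphate pathway makes NADPH while it turns glucose 6-phosphate into ribulose 5-phosphate, and the non-oxidative branch exchanges pentose phosphates with intermediates of glycolysis. Outside this pathway, malic enzyme and the NADP-dependent isocitrate dehydrogenases make NADPH in the cytosol or the mitochondrion. Of the 9 genes, 4 encode enzymes that form NADPH themselves, namely PGD, ME1, IDH1 and IDH2. The other 5 do not. PGLS opens the lactone ring that precedes the PGD step, RPE and RPIA interconvert pentose phosphates, and TKT and TALDO1 transfer carbon units in the non-oxidative branch.

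The libraries held from 15602183 to 17659496 gene-assigned reads. Untreated ATG7 KO replicate 1 stood apart, with a mean Pearson r of 0.974 with the other two libraries of its group, while every other library had at least 0.983 with its own group (log2 counts across genes). Against the mean of replicates 2 and 3, its scaled counts had a median log2 ratio of 0.29 among the shortest genes (median length 1896 bases) and -0.28 among the longest (8333 bases). The ratio was between 0.28 and 0.76 for 7 of the 9 genes, 0.047 for TKT and -0.046 for PGD, so comparisons with untreated ATG7 KO cells are also given without this library. ATG7 itself had 2.21 to 2.81 FPKM in untreated WT and 3.42 to 3.78 FPKM in untreated ATG7 KO libraries, and 1.91 to 1.99 and 2.11 to 2.35 FPKM with H2O2, so its mRNA was not reduced and cannot check the label. Of 10 lens epithelial markers, 4 had a mean above 1 FPKM in untreated WT cells (PAX6, SIX3, CDH2 and VIM), whereas the lens crystallin CRYAA was listed at 0 and the lens regulator FOXE3 had 0.0278 FPKM. Of the 7 lens fibre markers, 0 were above 1 FPKM in any group. Of 9 markers of fibroblast-like, blood, endothelial and neural cells, 3 or 4 were above 1 FPKM in each group, and their sum, nearly all of it from the collagen gene COL1A1, was 621 to 653 FPKM in untreated WT, 348 to 500 in untreated ATG7 KO, 273 to 290 in treated WT and 245 to 255 in treated ATG7 KO libraries. The part of these genes in the results was not tested, and in bulk RNA fewer cells of a kind cannot be told apart from less RNA per cell.

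Levels were compared between genes as FPKM, that is, per kilobase of gene length. In untreated WT cells, TALDO1 was highest with 43.2 ± 0.894 FPKM (SD, n = 3), followed by PGD with 32.4 ± 1.40 and TKT with 27.7 ± 0.790, and the libraries of these genes did not overlap. ME1 (14.9 ± 0.799 FPKM) and RPIA (14.8 ± 0.591 FPKM) overlapped each other. IDH2 (13.1 ± 0.246 FPKM) overlapped PGLS (12.8 ± 0.735 FPKM), which overlapped RPE (11.5 ± 0.948 FPKM). IDH1 was lowest with 4.14 ± 0.362 FPKM and 327 to 382 reads per library, below every other gene in all 4 groups. In H2O2-treated ATG7 KO cells TKT stood first, with 63.1 ± 1.10 FPKM against 52.0 ± 1.34 FPKM for TALDO1, and the libraries of these genes did not overlap. TKT had rank 2 in treated WT cells and rank 3 in both untreated groups. Over the 4 group means on the log2(FPKM + 1) scale, IDH1 varied most, by 1.37, followed by TKT (1.16) and RPIA (0.83), and TALDO1 varied least, by 0.32.

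**Figure D1:**
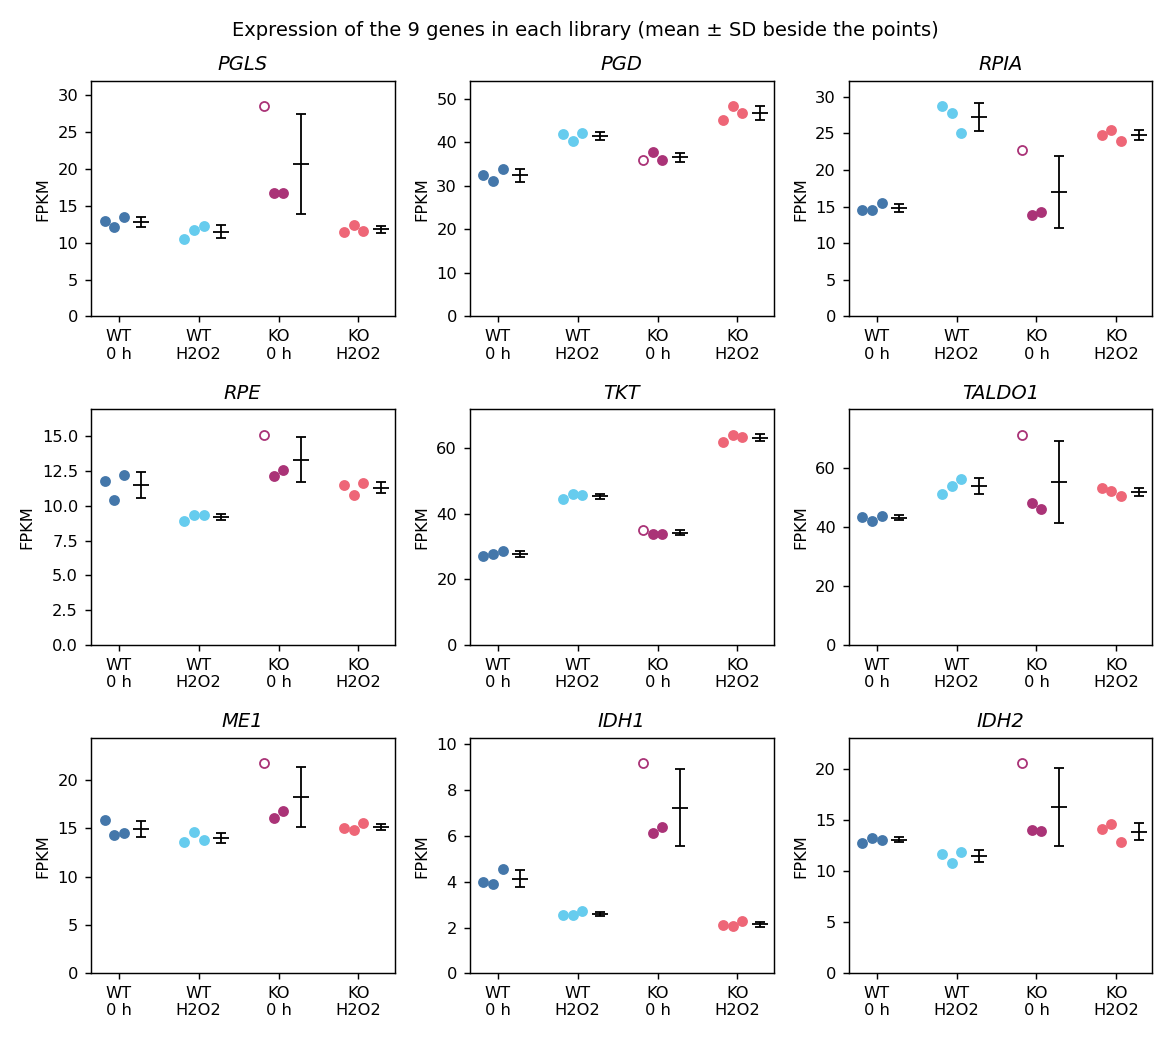
FPKM of each gene (vertical axis, from 0) in every library of the 4 groups, with the group mean and SD (n = 3) drawn beside the points. The open point is untreated ATG7 KO replicate 1, which lies above replicates 2 and 3 for each gene except PGD. IDH1 is between 6.12 and 9.17 FPKM in untreated ATG7 KO cells and between 2.05 and 2.27 FPKM after H2O2.

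In the annotation columns of the deposited tables (GRCh38), all 9 genes are protein-coding and all 9 have the same position in GENCODE release 29. PGD (ENSG00000142657) lies on the plus strand of chromosome 1 (10398592 to 10420144), and chromosome 2 holds RPIA (ENSG00000153574, plus strand, 88691644 to 88750935), IDH1 (ENSG00000138413, minus strand, 208236227 to 208266074) and RPE (ENSG00000197713, plus strand, 210002565 to 210022259). TKT (ENSG00000163931) lies on the minus strand of chromosome 3 (53224707 to 53256052), ME1 (ENSG00000065833) on the minus strand of chromosome 6 (83210389 to 83431071) and TALDO1 (ENSG00000177156) on the plus strand of chromosome 11 (747329 to 765024). IDH2 (ENSG00000182054) lies on the minus strand of chromosome 15 (90083045 to 90102504) and PGLS (ENSG00000130313) on the plus strand of chromosome 19 (17511629 to 17521288). Overlapping or copied genes can share reads, and the reads counted for them do not show how many were dropped or credited to the 9 genes. IDH1-AS1, on the strand opposite IDH1, had at most 7 reads in a library, RPEL1, a close copy of RPE, had at most 6, and the processed pseudogenes PGDP1 and RPIAP1 had at most 2 and 1. KANSL1L, opposite RPE, had 90 to 194 reads per library, against 505 to 879 for RPE. AC010618.3, opposite PGLS, had 20 to 50, against 505 to 1337 for PGLS.

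PGD, TKT, TALDO1 and ME1 are known targets of NRF2, the transcription factor of the antioxidant response, so the stretch from 250 bases before to 50 bases after each start was searched for the core of its binding element, TGACNNNGC, on both strands. RefSeq promoters on GRCh38.p14 matched all 9 genes, with a pair of starts for IDH1. Of the 10 promoters searched for these genes, 4 (1 each of PGD, ME1, IDH1 and RPE) held the core, against 13.3% of 35116 promoters. The IDH1 promoter at 208254409 to 208254708 did not hold it. The windows of PGD, IDH1 and IDH2 lie inside the annotated span of the gene, so sequence before its outermost 5' end was not searched. The only IDH2 window (90100572 to 90100871) has 48.3% GC, against a median of 58.7% over all promoters, and the annotated 5' end of IDH2 is at 90102504. The promoters shown belong to the gene with the strongest fall (IDH1), the gene with the strongest rise in ATG7 KO cells (TKT), and PGD and ME1, which both hold the core and of which PGD rose in WT cells and ME1 did not pass the test. Capitals mark the core on either strand, and the TKT window holds none.
IDH1, chr2:208255022-208255321, minus strand: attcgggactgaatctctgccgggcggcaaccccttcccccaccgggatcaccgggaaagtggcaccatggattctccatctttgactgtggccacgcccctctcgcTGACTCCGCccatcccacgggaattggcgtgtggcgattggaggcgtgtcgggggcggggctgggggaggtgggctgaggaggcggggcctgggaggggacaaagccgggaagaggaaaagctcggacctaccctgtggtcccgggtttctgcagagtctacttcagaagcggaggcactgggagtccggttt
PGD, chr1:10398814-10399113, plus strand: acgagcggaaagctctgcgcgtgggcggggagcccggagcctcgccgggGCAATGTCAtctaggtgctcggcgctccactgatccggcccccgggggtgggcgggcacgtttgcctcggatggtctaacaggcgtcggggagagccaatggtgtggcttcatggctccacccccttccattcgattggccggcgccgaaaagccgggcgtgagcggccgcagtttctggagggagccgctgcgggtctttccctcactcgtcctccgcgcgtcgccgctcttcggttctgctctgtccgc
ME1, chr6:83431002-83431301, minus strand: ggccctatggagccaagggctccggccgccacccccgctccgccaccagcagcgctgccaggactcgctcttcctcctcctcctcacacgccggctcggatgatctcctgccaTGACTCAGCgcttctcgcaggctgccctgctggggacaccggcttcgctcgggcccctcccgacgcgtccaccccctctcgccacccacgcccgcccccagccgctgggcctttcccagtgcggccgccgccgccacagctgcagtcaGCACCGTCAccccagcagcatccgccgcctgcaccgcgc
TKT, chr3:53255973-53256272, minus strand: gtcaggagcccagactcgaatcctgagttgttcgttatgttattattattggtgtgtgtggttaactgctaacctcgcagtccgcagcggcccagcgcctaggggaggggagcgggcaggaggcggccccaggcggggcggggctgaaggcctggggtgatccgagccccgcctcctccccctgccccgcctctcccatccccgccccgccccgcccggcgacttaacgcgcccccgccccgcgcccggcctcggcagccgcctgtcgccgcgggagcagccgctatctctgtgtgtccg

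In ME1 the core occurred at 2 places, and the first, at position -137 from the start, also contains the AP-1 site TGANTCA, which 7.71% of all promoters hold. Counted the same way, the core began at -143 in IDH1, at -151 in RPE and at -201 in PGD. The E-box CACGTG was in 0 of the 10 windows of these genes (7.26% of all promoters), and so was the sterol response element TCACNCCAC (1.13%). A match is a sequence of letters and does not show binding.

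The first question was how H2O2 changed these genes in each line. Under edgeR's quasi-likelihood test with a threshold of 0.01 on the adjusted p, 6 of the 9 genes passed in WT cells. TKT, RPIA, PGD and TALDO1 rose, and IDH1 and RPE fell. Among all genes tested 30.9% rose and 30.1% fell in WT cells. In ATG7 KO cells TKT rose and IDH1 fell, and the other 7 genes did not pass, against 13.6% of all genes that rose and 12.4% that fell. Without untreated ATG7 KO replicate 1, PGD, RPIA, TKT and TALDO1 rose and IDH1 and PGLS fell in ATG7 KO cells, while 29.8% of all genes then rose and 28.6% fell. Across the 9 genes the median log2 fold change was -0.089 in WT and -0.23 in ATG7 KO cells, and the medians of all genes were -0.0053 and -0.032. Without untreated ATG7 KO replicate 1 the median of the 9 genes in ATG7 KO cells was -0.029. ATG7 KO untreated libraries serve both the response of ATG7 KO cells and the untreated comparison with WT, so those results are not independent of each other.

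**Figure D2:**
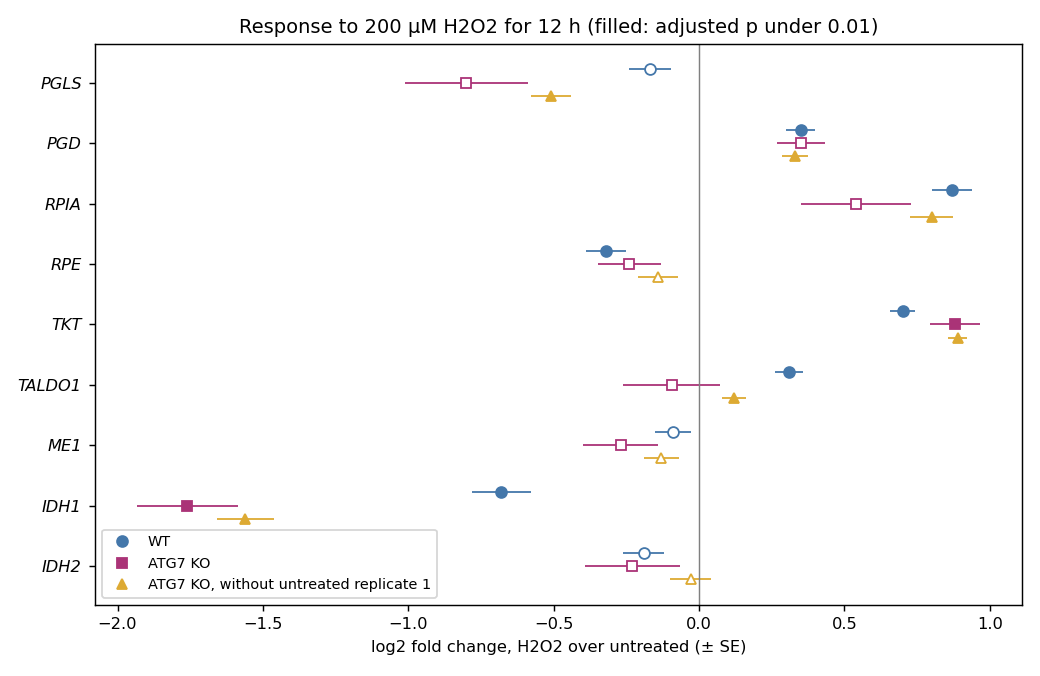
Log2 fold change of each gene (horizontal axis, with its SE) after 200 μM H2O2 for 12 h in WT cells, in ATG7 KO cells, and in ATG7 KO cells without untreated replicate 1. Filled symbols passed an adjusted p of 0.01. IDH1 lies at -0.68 in WT and -1.76 in ATG7 KO cells, and TKT at 0.70 and 0.88.

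IDH1, the cytosolic enzyme that forms NADPH from isocitrate, had 3.97, 3.89 and 4.56 FPKM in the untreated WT libraries and 2.55, 2.53 and 2.71 FPKM in the treated ones. The ATG7 KO libraries of this gene had 9.17, 6.12 and 6.38 FPKM untreated and 2.10, 2.05 and 2.27 FPKM treated. Treated libraries were below untreated ones in both lines, and the ATG7 KO libraries were the highest without H2O2 and the lowest with it. IDH1 fell by 0.68 on the log2 scale in WT cells (standard error, SE, 0.102, adjusted p = 1.03e-07) and by 1.76 in ATG7 KO cells (SE 0.174, adjusted p = 0.000359). This was the one change among the 9 genes beyond 1 in the 4 comparisons of groups, and 2.19% of genes tested in ATG7 KO cells had a lower log2 fold change. Without untreated ATG7 KO replicate 1 the fall was 1.56 (log2 fold change -1.56, adjusted p = 3.15e-41).

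IDH2, the mitochondrial counterpart of IDH1, passed in neither line. It had 12.8, 13.3 and 13.1 FPKM in untreated and 11.7, 10.8 and 11.9 FPKM in treated WT libraries, which did not overlap, but the log2 fold change of -0.19 did not pass (SE 0.0699, adjusted p = 0.0142). For the ATG7 KO line the values were 20.6, 14.1 and 14.0 FPKM untreated and 14.2, 14.6 and 12.9 FPKM treated, and only untreated replicate 1 lay apart. The log2 fold change was -0.23 (adjusted p = 0.295), and -0.029 without that library. IDH2 did pass in WT cells under 3 of 14 alternatives, with a correction for gene length (-0.33, adjusted p = 6.32e-05), without treated WT replicate 3 (-0.23, adjusted p = 0.00603) and with no filter (-0.23, adjusted p = 0.00633).

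PGD, which forms NADPH in the oxidative branch, had 32.4, 31.1 and 33.9 FPKM in untreated and 41.9, 40.4 and 42.2 FPKM in treated WT libraries. In ATG7 KO cells it had 36.0, 37.9 and 36.0 FPKM untreated and 45.1, 48.3 and 46.8 FPKM treated. Treated libraries were above untreated ones in both lines, and replicate 1 did not lie apart for this gene. The log2 fold change was 0.35 in each line, with an adjusted p of 2.84e-08 in WT cells (SE 0.0498) and 0.0131 in ATG7 KO cells (SE 0.0819). PGD passed in ATG7 KO cells under 4 of 14 alternatives, among them without untreated ATG7 KO replicate 1 (0.33, adjusted p = 2.94e-12) and with DESeq2 (0.36, adjusted p = 0.000577).

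ME1, the cytosolic malic enzyme, which forms NADPH from malate, had 14.3 to 15.8 FPKM in untreated and 13.6 to 14.6 FPKM in treated WT libraries. The ATG7 KO libraries of this gene had 16.0 to 21.7 FPKM untreated and 14.8 to 15.5 FPKM treated. The WT groups overlapped and the ATG7 KO groups did not. The log2 fold change was -0.089 in WT (adjusted p = 0.202) and -0.27 in ATG7 KO cells (adjusted p = 0.131), or -0.13 without untreated ATG7 KO replicate 1 (adjusted p = 0.0472), and it passed under no alternative in either line. The difference in response between PGD and ME1, whose promoters both hold the element core, was not tested.

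TKT, the transketolase of the non-oxidative branch, had 27.0, 27.6 and 28.5 FPKM in untreated and 44.5, 46.0 and 45.6 FPKM in treated WT libraries. For the ATG7 KO line the values were 35.1, 33.7 and 33.9 FPKM untreated and 61.9, 64.0 and 63.4 FPKM treated. The 4 groups did not overlap, and treated ATG7 KO libraries were the highest. TKT rose by 0.70 in WT (SE 0.0420, adjusted p = 6.39e-20) and by 0.88 in ATG7 KO cells (SE 0.0872, adjusted p = 0.000338), which are folds of 1.63 and 1.84, and it passed under every alternative in both lines.

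RPIA, the isomerase that gives ribose 5-phosphate, had 14.5, 14.5 and 15.5 FPKM in untreated and 28.7, 27.8 and 25.1 FPKM in treated WT libraries, the largest rise of the 9 genes in WT cells (log2 fold change 0.87, SE 0.0693, adjusted p = 1.81e-15). In ATG7 KO cells it had 22.7, 13.9 and 14.3 FPKM untreated and 24.8, 25.5 and 24.0 FPKM treated. Untreated replicate 1 was close to the treated libraries, and the groups did not overlap. The log2 fold change of 0.54 did not pass with replicate 1 (adjusted p = 0.0530) and was 0.80 without it (adjusted p = 1.58e-22). RPIA also passed with the gene length correction (0.72, adjusted p = 0.000861) and when all 12 libraries were fitted together (0.54, adjusted p = 0.00812).

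TALDO1, the transaldolase, had 42.2 to 43.9 FPKM in untreated and 51.2 to 56.5 FPKM in treated WT libraries and rose by 0.31 (SE 0.0474, adjusted p = 1.23e-07). The ATG7 KO libraries of this gene had 71.4, 48.3 and 46.3 FPKM untreated and 53.2, 52.2 and 50.5 FPKM treated. The treated libraries lay between untreated replicate 1 and the other two. The log2 fold change of -0.094 (adjusted p = 0.674) turned to 0.12 without replicate 1 and then passed (adjusted p = 0.00536), so the direction in ATG7 KO cells rested on 1 library. In WT cells TALDO1 did not pass in the fit of all 12 libraries (0.31, adjusted p = 0.0590).

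RPE, the epimerase that leads to xylulose 5-phosphate, had 10.4 to 12.2 FPKM in untreated and 8.92 to 9.33 FPKM in treated WT libraries and fell by 0.32 (log2 fold change -0.32, SE 0.0704, adjusted p = 7.96e-05). RPE and RPIA act on the same substrate, ribulose 5-phosphate, and moved in opposite directions in WT cells. For the ATG7 KO line the values were 12.1 to 15.1 FPKM untreated and 10.8 to 11.6 FPKM treated, which did not overlap, with a log2 fold change of -0.24 (adjusted p = 0.118), or -0.14 without replicate 1 (adjusted p = 0.0545). The WT call was lost in the fit of all 12 libraries (-0.32, adjusted p = 0.0111).

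PGLS, the lactonase of the oxidative branch, had 12.1 to 13.5 FPKM in untreated and 10.5 to 12.2 FPKM in treated WT libraries, which overlapped (log2 fold change -0.17, adjusted p = 0.0350). In ATG7 KO cells it had 28.5, 16.7 and 16.8 FPKM untreated and 11.5, 12.4 and 11.6 FPKM treated. All treated libraries were below the untreated ones, and replicate 1 was the highest. The log2 fold change of -0.80 missed the threshold (SE 0.211, adjusted p = 0.0201) and passed under 5 of 14 alternatives, among them without replicate 1 (-0.51, adjusted p = 4.00e-12) and with DESeq2 (-0.79, adjusted p = 0.00230). In WT cells PGLS did pass with the correction for gene length (-0.30, adjusted p = 0.000292) and without treated WT replicate 3 (-0.23, adjusted p = 0.00671).

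The second question was how ATG7 KO cells differed from WT cells. In H2O2-treated cells 4 of the 9 genes, TKT, RPE, IDH2 and PGD, were higher in ATG7 KO cells and 0 were lower, against 27.7% of all genes higher and 27.9% lower. In the fit of all 12 libraries only TKT passed, while the share of all genes that passed fell from 55.6% to 28.9%. Between untreated cells 0 of the 9 genes passed in either direction in edgeR's quasi-likelihood test, against 4.42% of all genes higher and 3.28% lower in ATG7 KO cells. At an unadjusted p under 0.05 there were 3, but the share of all genes at that threshold was not counted, so this number has no background to be read against. DESeq2 gave 2, IDH1 and TKT, and passed 16.4% of all genes, against 7.7% with edgeR. Without untreated ATG7 KO replicate 1, IDH1, PGLS, TKT and PGD were higher and 0 were lower, while 18.2% of all genes were then higher and 17.9% lower. The median log2 fold change of the 9 genes was 0.30 untreated, 0.15 without that replicate and 0.10 with H2O2, and that of all genes was 0.0055, -0.0049 and -0.0022.

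**Figure D3:**
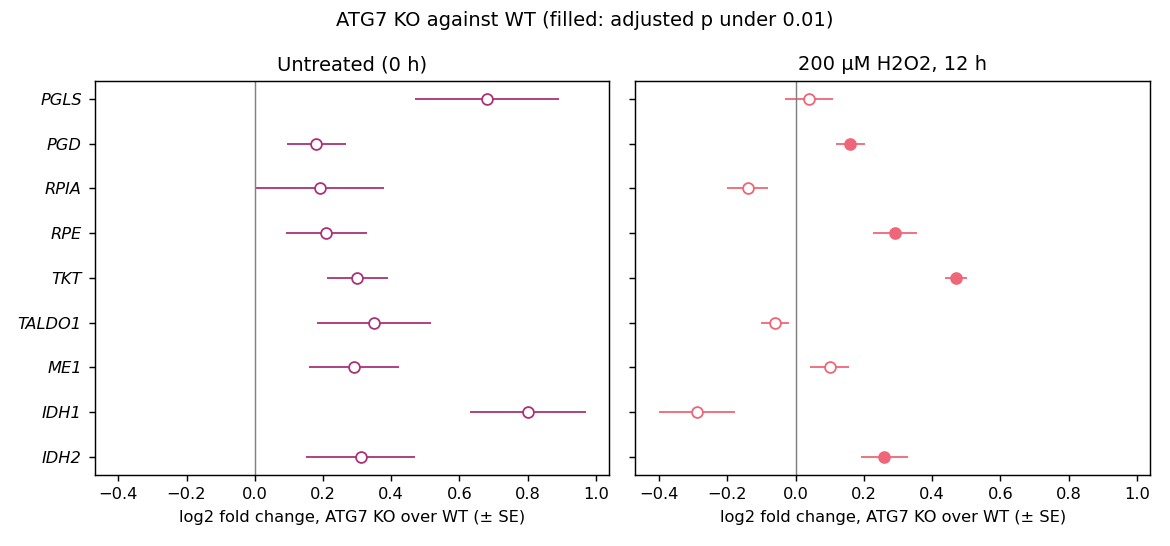
Log2 fold change of ATG7 KO over WT cells (horizontal axis, with its SE) for each gene, untreated on the left and with H2O2 on the right. Filled points passed an adjusted p of 0.01. IDH1 lies at 0.80 untreated and at -0.29 with H2O2, and TKT at 0.30 and 0.47.

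TKT had the largest difference with H2O2, 44.5 to 46.0 FPKM in WT and 61.9 to 64.0 FPKM in ATG7 KO libraries (log2 fold change 0.47, SE 0.0327, adjusted p = 6.55e-14). It was also the one that passed under all 14 alternatives in that comparison. Untreated, the libraries did not overlap either, and the log2 fold change was 0.30 (adjusted p = 0.0548, and 1.27e-09 without replicate 1). Of its 40 nearest tested neighbours on chromosome 3, 16 were higher in treated ATG7 KO cells and 6 lower, with a median of 0.29, against 15 and 9 around PGD, 14 and 8 around ME1, and 27.7% higher and 27.9% lower among all genes, and their part in the difference of TKT was not tested.

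RPE was higher in treated ATG7 KO cells by 0.29 (SE 0.0647, adjusted p = 0.000253) and IDH2 by 0.26 (SE 0.0680, adjusted p = 0.00111), and neither gene had overlapping libraries between the lines. PGD was higher by 0.16 (SE 0.0423, adjusted p = 0.00120). Fitted with all 12 libraries, these genes had adjusted p values of 0.0240 (RPE), 0.108 (IDH2) and 0.0478 (PGD). RPIA (-0.14, adjusted p = 0.0381), TALDO1 (-0.06, adjusted p = 0.211), ME1 (0.10, adjusted p = 0.128) and PGLS (0.04, adjusted p = 0.638) did not pass. RPIA did pass without treated WT replicate 3 (-0.20, adjusted p = 0.00327) and ME1 with the correction for gene length (0.18, adjusted p = 0.00591). Of the 40 neighbours of TALDO1 on chromosome 11, 22 were lower and 6 higher, with a median of -0.28, while TALDO1 itself was near 0.

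IDH1 had differences of opposite sign untreated and with H2O2. Untreated, it was at 3.89 to 4.56 FPKM in WT and 6.12 to 9.17 FPKM in ATG7 KO libraries, so that the groups did not overlap, and the log2 fold change was 0.80 and missed the threshold (SE 0.170, adjusted p = 0.0185). It passed without replicate 1 (0.60, adjusted p = 7.27e-10), with DESeq2 (adjusted p = 0.000556), with no filter (0.00298), with the correction for gene length (0.00952) and in the fit of all 12 libraries (0.000754). With H2O2 it was at 2.53 to 2.71 FPKM in WT and 2.05 to 2.27 FPKM in ATG7 KO libraries, which did not overlap, and the log2 fold change of -0.29 did not pass (SE 0.111, adjusted p = 0.0251). PGLS untreated was at 12.1 to 13.5 FPKM in WT and 16.7 to 28.5 FPKM in ATG7 KO libraries, with a log2 fold change of 0.68 (SE 0.211, adjusted p = 0.0646), or 0.39 without replicate 1 (adjusted p = 3.77e-07). TALDO1 (0.35), IDH2 (0.31), ME1 (0.29), RPE (0.21) and RPIA (0.19) did not pass, and without replicate 1 their log2 fold changes were 0.14, 0.11, 0.15, 0.12 and -0.063.

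Whether H2O2 acted differently in the 2 lines was tested with an interaction term in a fit of all 12 libraries. IDH1 passed, with a log2 difference between the responses (ATG7 KO minus WT) of -1.08 (SE 0.203, adjusted p = 0.00235), against 7.01% of all genes that passed in this direction and 7.02% in the other. It passed under all 19 alternatives, between -1.18 and -0.86, with an adjusted p of at most 0.00875. The other 8 genes did not pass. PGLS had a difference of -0.64 (adjusted p = 0.0600), TALDO1 of -0.41 (adjusted p = 0.108) and RPIA of -0.33 (adjusted p = 0.252), but without untreated ATG7 KO replicate 1 TALDO1 had -0.18 and RPIA -0.062, and with the gene length correction RPIA had 0.045. Without untreated ATG7 KO replicate 1, PGLS (-0.33, adjusted p = 0.00474) and TKT (0.20, adjusted p = 0.00200) passed as well, though TKT turned to -0.12 with the gene length correction, and PGLS also passed with no filter (-0.61, adjusted p = 0.00269). Without that replicate 17.8% of all genes passed above 0 and 16.3% below. PGD had -0.0041, RPE 0.084, ME1 -0.18 and IDH2 -0.035, and without that replicate these were -0.013, 0.19, -0.03 and 0.17. With the gene length correction PGD had 0.21 and IDH2 0.22.

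The lists that follow are to be read against the share of all genes, which was 30.9% risen and 30.1% fallen in WT cells, 13.6% and 12.4% in ATG7 KO cells, and 29.8% and 28.6% in ATG7 KO cells without untreated replicate 1. A further 14 genes around NADPH supply were followed, of mitochondrial malic enzymes, folate metabolism, NAD kinases and related enzymes. They were listed by theme and not by the cofactor used, so a change in one need not be a change in a source of NADPH. In WT cells 4 rose and 5 fell with H2O2 of 13 tested. MTHFD2, a mitochondrial enzyme of folate metabolism, rose most (log2 fold change 1.75, adjusted p = 1.21e-32), from 17.6 ± 0.826 to 59.4 ± 3.53 FPKM, and rose in ATG7 KO cells too (1.67, adjusted p = 8.11e-05). NNT, the transhydrogenase of the inner mitochondrial membrane (-0.78, adjusted p = 3.51e-18), and H6PD, which makes NADPH inside the endoplasmic reticulum (-0.96, adjusted p = 1.69e-21), fell in WT cells. Of 14 tested in ATG7 KO cells, 3 rose and 1 fell, and without replicate 1 it was 5 and 4. Between treated cells 5 were higher and 3 lower in ATG7 KO, with ME2, a mitochondrial malic enzyme, at 0.47 (adjusted p = 2.94e-11) and MTHFD2 at -0.37 (adjusted p = 1.47e-09).

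Among 12 genes beside the pentose phosphate pathway, of which 9 could be tested, 5 rose and 0 fell in WT cells and 2 rose and 0 fell in ATG7 KO cells, or 8 without replicate 1. TIGAR, a phosphatase that lowers glycolytic flux and so favours the pathway, rose by 2.91 in WT (adjusted p = 2.68e-17) and by 2.34 in ATG7 KO cells (adjusted p = 0.00143), from 16 to 24 reads per untreated WT library to 138 to 160 treated. It was lower in treated ATG7 KO than in treated WT cells (-0.81, adjusted p = 1.31e-05). DERA, the deoxyribose-phosphate aldolase, responded more in ATG7 KO cells (interaction 0.91, adjusted p = 0.00409). The median log2 fold change of the 9 genes tested was 0.26 in WT and 0.33 in ATG7 KO cells.

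Around the isocitrate and malate steps, 3 of 12 genes rose and 5 fell in WT cells, and 1 rose and 4 fell in ATG7 KO cells (2 and 8 without replicate 1), and in WT cells these counts lay near the shares of all genes. The subunits of the NAD-dependent isocitrate dehydrogenase split. IDH3A rose in WT (0.62, adjusted p = 3.15e-10) and ATG7 KO cells (0.97, adjusted p = 0.000738), the reverse of IDH1, whereas IDH3G fell in ATG7 KO cells (-0.80, adjusted p = 0.00269). OGDH, which acts on the 2-oxoglutarate that these dehydrogenases release, fell in WT (-0.52, adjusted p = 1.75e-12) and ATG7 KO cells (-0.95, adjusted p = 0.00120).

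On the demand side, 17 genes of enzymes that use NADPH were examined. In WT cells 5 rose and 1 fell of 13 tested, while of 17 tested in ATG7 KO cells 6 rose and 4 fell (7 and 7 without replicate 1). GSR, glutathione reductase, rose by 1.11 in ATG7 KO cells (adjusted p = 0.000317). Between untreated lines 6 of 16 were higher and 0 lower in ATG7 KO cells, and 10 and 1 without replicate 1. Among all genes it was 4.42% and 3.28%, or 18.2% and 17.9% without that replicate. The aldo-keto reductase AKR1C1 had 0 reads in each untreated WT library and 150 to 246 in the untreated ATG7 KO libraries, and AKR1C3 had 2 to 5 and 448 to 779, whereas AKR1B10 had 0 to 1 in both. With H2O2 AKR1B10 rose by 5.62 in ATG7 KO cells (adjusted p = 0.000771), to 17 to 25 reads per library, and it had 7 to 15 in treated WT libraries. The untreated values of AKR1B10 were chosen after they were seen, and reads of the close AKR1C paralogs can be split between them.

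Of 15 genes of the NRF2 pathway, of which NQO1 and TXNRD1 also stand among the users of NADPH, 14 rose and 0 fell in WT cells with H2O2, and in ATG7 KO cells 6 rose and 1 fell, or 10 and 2 without replicate 1. The median log2 fold change was 0.88 and 0.42. Among treated cells 5 were higher and 10 lower in ATG7 KO, against 27.7% and 27.9% of all genes. NFE2L2, which encodes NRF2, rose by 0.23 in WT cells (adjusted p = 0.000161) and had -0.29 in ATG7 KO cells (adjusted p = 0.0578), with an interaction of -0.53 (adjusted p = 0.00667). KEAP1, its inhibitor, rose by 0.32 in WT cells (adjusted p = 2.29e-07), with an interaction of -0.41 that did not pass (adjusted p = 0.0327). These counts describe the lists, and no test set them against the 9 genes.

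For the 3 genes that varied most, the protein-coding genes with the most similar profile over the 12 libraries were sought among 9893 genes, by the root-mean-square difference of centred log2(FPKM + 1). ECI2 was closest to IDH1 (0.0963, against a median of 0.577 over all genes), followed by PNKD (0.122) and COQ5 (0.137). ECI2 had 14.0 FPKM in untreated WT and 21.5 FPKM in untreated ATG7 KO cells, and 10.3 and 8.75 FPKM with H2O2, the same order of groups as IDH1. ECI2 encodes an isomerase of fatty acid oxidation and COQ5 an enzyme of coenzyme Q synthesis. TRIM24 (0.0628), SCRIB (0.0650) and BCL2 (0.0650) were closest to TKT, and CLTB (0.0710), NT5C3A (0.0916) and RIOK1 (0.0926) to RPIA. BCL2 had only 1.13 FPKM in untreated WT and 3.6 FPKM in treated ATG7 KO cells, against 27.7 and 63.1 FPKM for TKT. At such low levels the added 1 narrows differences, so the likeness of BCL2 holds on this scale only. The group means of IDH1 lay between 2.14 and 7.23 FPKM, below those of ECI2, so the likeness of ECI2 to IDH1 also depends on the added 1. The measure is a description over libraries that share groups.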

How the data were processed

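The authors sequenced 12 total RNA libraries of HLE-B3 cells. The deposited counts are whole reads per gene, not normalized. Per the deposited tables, the authors derived FPKM from those counts, scaled for the length of each gene and the size of each library. The submitters' processing notes name HISAT2 2.0.5, featureCounts 1.5.0-p3 and GRCh38, and the strand setting of the counting is not given in the sources used here, so reads of overlapping genes on opposite strands may not be told apart.

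Counts were analysed with edgeR 4.0.16 in R 4.3.3, after filterByExpr (minimum count 10) and TMM scaling, with a robust quasi-likelihood fit of the 6 libraries compared, or of all 12 for the interaction. P values were adjusted by Benjamini-Hochberg over all genes tested (15357 to 16856), and the threshold was 0.01 with no minimum fold. The study also required an absolute log2 fold change over 1 and an FPKM over 1. With that fold, 1 of the 9 genes (IDH1, H2O2 in ATG7 KO) would be called in the comparisons of groups. All 9 genes passed the filter in each comparison. SE is the log2 fold change over the square root of the F statistic. The scripts were tested on simulated data. Replicates are biological per the labels.

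Alternatives were DESeq2 1.42.0, RLE size factors, no filter, a gene length correction (lowess, span 0.3), all 12 libraries in 1 fit, each library left out, a block for replicate number, and limma 3.58.1 on log2(FPKM + 1) or log2(FPKM + 0.1). Lists recounted without untreated ATG7 KO replicate 1 were added after seeing the data. Genes were named by rule: the 9 genes, NFE2L2, KEAP1, at most the 2 most changed genes per list, direction and comparison, and the 3 nearest profiles. The genes and lists were chosen with earlier results of these data known.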

Additional observations from a re-analysis of the deposited data

Results flagged for a closer look

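The response of IDH1 to H2O2 differed between the lines by the interaction test, with a log2 difference of -1.08 (ATG7 KO minus WT, standard error 0.203, adjusted p = 0.00235). All 3 treated libraries lay below all 3 untreated ones in each line, so the lines differed in the size of the fall and not in its direction. Each library held between 159 and 714 reads on IDH1. Without untreated ATG7 KO replicate 1, the highest IDH1 library, the difference was -0.87 (adjusted p = 2.95e-07).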

How the results depend on the processing

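The number of the 9 genes that passed depended most on untreated ATG7 KO replicate 1. With each library left out in turn, the counts were 0 to 4 genes for untreated ATG7 KO against WT, 4 to 5 for treated ATG7 KO against WT, 6 to 8 for H2O2 in WT, 2 to 6 for H2O2 in ATG7 KO and 1 to 3 for the interaction, and the highest counts of the untreated comparison, the ATG7 KO response and the interaction came without that replicate. Without that replicate 36.2% of all genes passed in the untreated comparison, 58.4% in the ATG7 KO response and 34.1% in the interaction. With it the shares were 7.7%, 26% and 14%. With 1 library left out, 48.6% to 54.3% of all genes passed for treated ATG7 KO against WT. For H2O2 in WT it was 55.2% to 59.4%. For untreated ATG7 KO against WT (0 genes), DESeq2 gave 2, no filter 1, the gene length correction 1 and all 12 libraries in 1 fit 3. Of all genes 16.4%, 5.38%, 11.8% and 18.7% passed in those settings. The fit of all 12 gave 1 gene for treated ATG7 KO against WT (4 genes), where 28.9% of all genes passed, against 55.6% before. For H2O2 in ATG7 KO (2 genes) the fit of all 12 gave 5, DESeq2 4 and the gene length correction 5. Of all genes 38.7%, 35.7% and 32.9% passed there, against 26%. For H2O2 in WT (6 genes), the fit of all 12 gave 4, no filter 7 and the gene length correction 8. Of all genes 40.5%, 30.2% and 60.1% passed there, against 61%. For the interaction (1 gene), no filter gave 2, while 11.1% of all genes passed, against 14%. The cause was not tested.

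Some log2 values that had not passed changed sign. With the gene length correction RPIA had -0.018 untreated and 0.042 treated (ATG7 KO against WT), TALDO1 0.051 in the treated comparison and 0.023 with H2O2 in ATG7 KO, and the interaction was 0.21 for PGD, 0.045 for RPIA, -0.12 for TKT and 0.22 for IDH2. PGD had 0.022 in the interaction with no filter. With 1 library left out, RPIA ranged from -0.063 to 0.32 (untreated ATG7 KO against WT), PGLS from -0.026 to 0.089 (treated), TALDO1 from -0.21 to 0.12 (H2O2 in ATG7 KO), and the interaction from -0.027 to 0.033 for PGD and from -0.12 to 0.17 for IDH2. Without a filter the median of all genes moved to 0.20 for H2O2 in WT, and to -0.12 for treated ATG7 KO against WT and the interaction.

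The labels link samples across groups only by a replicate number. Deviations of same-numbered libraries from their group means correlated between -0.042 and 0.10, which cannot show whether these libraries were prepared together. With the replicate number as a block 0, 4, 6, 2 and 1 of the 9 genes passed in the 5 comparisons, as without it, and no call on the 9 genes changed. Of all genes 3.25%, 54.7%, 61.1%, 19% and 11.8% passed with the block. The shares without it were 7.7%, 55.6%, 61%, 26% and 14%.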
